A study of Mus musculus with 6 samples.

Results

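The members described here are the microarray probes whose deposited log ratio had the same sign on all 6 arrays of the series. They were chosen on these ratios: of 6856 probes in the value table, 3763 had a value on every array, 44 of those were left out because they stand for Gng3 or for genes named Rpl or Rps, and 52 of the remaining 3719 had 1 sign throughout. Of these 52 probes, 39 lay above 0 and 13 below 0 on every array. A gene symbol was given for 47 of them, 37 above and 10 below, and the other 5 probes carry no name.

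Each array compared neocortex RNA from 1 synaptically silent null mutant embryo with RNA of a wild-type pool. The mutants, 6 biological replicates of embryonic day 14 on a C57BL/6 background, each had an array of their own. The pool held RNA of 6 wild-type animals of the same age, background and brain region and served on every array. Replicates 1 to 3 had the mutant labelled with the dye cy3 (the cy3 arrays), and replicates 4 to 6 had it labelled with cy5 (the cy5 arrays). The comparison asks how silence of the synapses bears on gene expression in the developing cortex, and the sexes of the embryos are not given.

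A dye swap of this kind separates a change in the RNA from a difference in how the dyes behave. A gene that differs in the mutant keeps its sign when the ratio always has the mutant on top, whereas a dye effect changes sign with the labelling. At this stage the neocortex consists of dividing progenitors and of young neurons that leave the cell cycle, migrate and begin to grow axons. Synapses are still rare, and the transcription factors that assign regional and neuronal identity are active.

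The direction of the deposited ratio is not stated, and signs are therefore given as deposited. If the ratio is mutant over pool on every array, the 39 probes above 0 had more RNA in all 6 mutants and the 13 below 0 had less. If it is instead 1 dye over the other on every array, the same probes changed direction between the orientations and their shared sign follows the dye. The labels do not say which of these holds, and base 2 of the logarithm is assumed. Ratios hold no level, so the presence of the labelled tissue's markers could not be checked.

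Promoter sequence is shown for the genes that stayed farthest from 0 on their weakest array. The windows, from RefSeq on GRCm38.p6, are the first listed for the 2 genes on each side with a window whose value closest to 0 lay farthest out. Each runs 5′ to 3′ from 250 bases before the gene's start to 50 after it, and capitals mark matches to any of 6 motifs searched on both strands. Zfp868 and Gphn are from the side above 0, Car5a and Psmd13 from the side below it.
Zfp868, chr8:69625499-69625798, minus strand: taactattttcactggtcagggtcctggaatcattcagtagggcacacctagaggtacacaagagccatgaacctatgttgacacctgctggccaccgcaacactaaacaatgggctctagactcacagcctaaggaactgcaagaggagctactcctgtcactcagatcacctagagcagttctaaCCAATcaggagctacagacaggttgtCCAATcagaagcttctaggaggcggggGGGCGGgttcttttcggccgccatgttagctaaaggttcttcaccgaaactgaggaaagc
Gphn, chr12:78226405-78226704, plus strand: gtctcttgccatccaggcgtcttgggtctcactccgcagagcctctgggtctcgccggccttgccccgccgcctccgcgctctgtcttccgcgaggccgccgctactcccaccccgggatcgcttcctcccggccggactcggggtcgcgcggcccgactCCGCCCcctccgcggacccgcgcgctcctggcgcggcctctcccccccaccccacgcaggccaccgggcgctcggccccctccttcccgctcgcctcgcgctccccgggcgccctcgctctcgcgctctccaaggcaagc
Car5a, chr8:121944863-121945162, minus strand: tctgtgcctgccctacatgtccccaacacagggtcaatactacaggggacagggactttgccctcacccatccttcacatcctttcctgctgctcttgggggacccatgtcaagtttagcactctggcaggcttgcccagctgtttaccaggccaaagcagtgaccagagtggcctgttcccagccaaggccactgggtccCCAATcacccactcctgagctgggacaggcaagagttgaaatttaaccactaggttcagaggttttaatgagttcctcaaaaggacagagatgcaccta
Psmd13, chr7:140882144-140882443, plus strand: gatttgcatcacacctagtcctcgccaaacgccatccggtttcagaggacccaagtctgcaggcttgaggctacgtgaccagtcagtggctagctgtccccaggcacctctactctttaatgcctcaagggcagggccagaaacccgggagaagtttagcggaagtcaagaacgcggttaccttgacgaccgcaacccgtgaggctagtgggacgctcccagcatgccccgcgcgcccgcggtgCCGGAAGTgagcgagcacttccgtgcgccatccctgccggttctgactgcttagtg

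The motifs were TGACGTCA, the cAMP response element, CACGTG, an E-box, CCGGAAGT, a site of ETS factors, GGGCGG, the GC box, CCAAT, the CCAAT box, and TATAAA, the TATA box. The Zfp868 window held both CCAAT and GGGCGG, the Gphn window GGGCGG read on the other strand, the Car5a window CCAAT and the Psmd13 window CCGGAAGT. A promoter window was found for 37 member genes. CCAAT stood in 21 of these 37 windows (56.8%), against 40.0% of the 2665 genes measured on all arrays and 37.9% of all 27025 genes. GGGCGG stood in 23 of 37 (62.2%), against 64.8% of the genes measured on all arrays and 35.9% of all genes. TGACGTCA was in the window of 1 member, Dapk3 (2.7%), against 3.11% and 1.88%. CACGTG, CCGGAAGT and TATAAA each stood in 3 of 37 windows (8.11%), where the genes measured on all arrays had 10.2%, 6.98% and 9.12% and all genes had 7.24%, 4% and 14.2%. These shares describe letters in the windows only.

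As deposited, fewer probes shared a sign on all 6 arrays than independent arrays would give, while on the 4 arrays without replicates 3 and 4 more did, 808 of 4683 probes against 624.3 expected. The share of values above 0 among the 3719 probes was 62.9%, 62.5%, 35.0%, 37.7%, 58.0% and 44.6% on replicates 1 to 6. With these shares, independent arrays would give 98.6 probes of 1 sign, 49.9 above 0 and 48.7 below it. With even shares they would give 116.2, or 58.1 on each side. The 39 probes above 0 were 1.05% of those counted and 78.2% of the number expected from the arrays' shares. The 13 below 0 were 0.350% of those counted and 26.7% of that number, and both sides together made up 1.40% and 52.7%. This expectation carries no test, because the arrays share the pool and probes of a gene are not independent, 78 of the probes being annotated to Gapdh alone.

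The arrays were not independent in these values. Over the 3763 probes Pearson's r between arrays ran from -0.33, for replicates 3 and 5, to 0.57, for replicates 3 and 4. The lowest r within 1 dye orientation was -0.24. Replicate 3 was also the widest array, with a standard deviation of 1.09 against 0.35 to 0.62 on the others. Turning the sign of replicates 1 to 3, which is the reading with 1 dye over the other, gave 146 probes of 1 sign in place of 52, where independent arrays would give 106.9. Of these 146, 62 were below 0 on the cy3 arrays and above 0 on the cy5 arrays, and 84 the reverse. Turning replicates 3 and 4 instead gave 464, against 169.0. They are the pair with the highest r and lie in different dye orientations, so this turning matches neither reading of the ratio. The labels do not set this pair apart, and its r comes from these same ratios. Results with the pair turned or left out are therefore description and no test. The bars of counted and expected probes show that the deposited signs gave fewer probes than expected on both sides and the turned signs more on both sides.

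**Figure D1:**
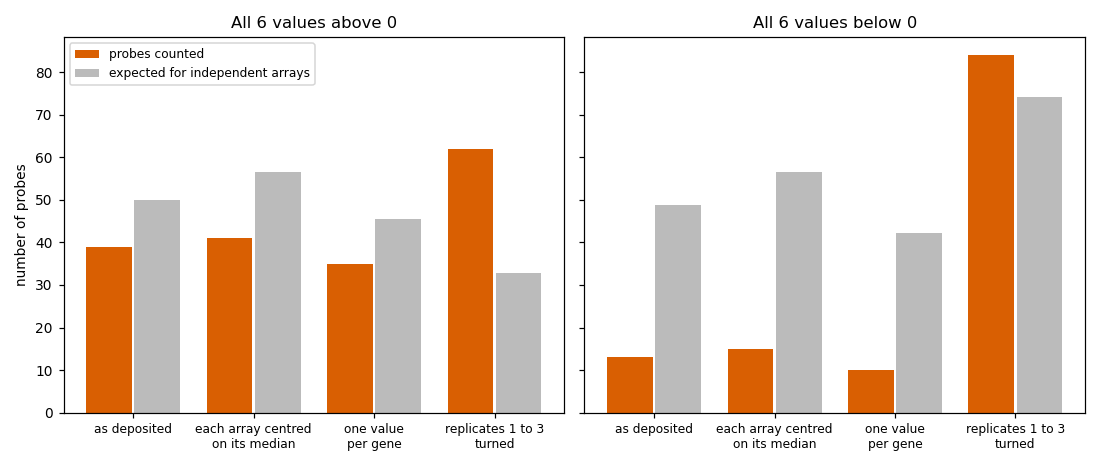
Number of probes with all 6 values above 0 (left) and below 0 (right) under 4 settings, counted (orange) and expected for independent arrays from each array's share of values on that side (grey). As deposited, 39 and 13 were counted where 49.9 and 48.7 were expected, and with replicates 1 to 3 turned 62 and 84 where 32.8 and 74.1 were expected.

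Across the whole table no probe differed between mutants and pool in limma. Its test covered 4958 probes and called 0 (0%) at an adjusted p of 0.05, with 0.372 as the smallest adjusted p, while 88 lay under an unadjusted p of 0.05. With replicates 1 to 3 turned it called 0, and 228 lay under that unadjusted p. Without replicates 3 and 4, 4728 probes were tested, 1 passed and 642 lay under that unadjusted p. By chance a share of 0.05 of the probes tested would lie under it. The 88 and the 228 of 4958 are under that share, and the 642 of 4728 are over it. The members were chosen on the same ratios, so nothing is tested on them here.

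Most members lay close to 0 on at least 1 array. The value closest to 0 had a median size of 0.042 on the side above and 0.067 on the side below, and it was under 0.05 for 22 of 39 and 5 of 13 members. It came from replicate 1 or 2 in 26 of the 52. The value farthest from 0 came from replicate 3 in 22 of the 52, and within a member the largest value was a median of 17.4 times the smallest. The mean over the arrays ran from 0.08 to 0.79 above 0, with a median of 0.29, and from -2.81 to -0.18 below 0, with a median of -0.53. The median size of this mean was 0.30 over members and 0.13 over all 3719 probes, a difference that the choice by sign favours.

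A measure of spot error came from the 78 probes annotated to Gapdh, a glycolytic enzyme often printed as a control. Whether they carry the same sequence is not known. Their standard deviation within an array was 0.21, 0.19, 0.79, 0.42, 0.21 and 0.63 on replicates 1 to 6. Of the 78, 0 had 1 sign on all arrays, which is near the background of 1.40% of all probes counted. The deviation is taken about the Gapdh mean, and the Gapdh median was -0.55 and -0.42 on replicates 3 and 4. On replicate 6 it takes in a lowest value of -4.90, beside a median of -0.13. The deviation without that value was not worked out. Among members, only unnamed probe 6385 lay farther from 0 than that deviation on each of the 6 arrays. Car5a and Psmd13 did so on 5, with Car5a short on replicate 6 and Psmd13 on replicate 4. Of the 52 members, 21 did so on at least 3 arrays and 8 on 0.

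**Figure D2:**
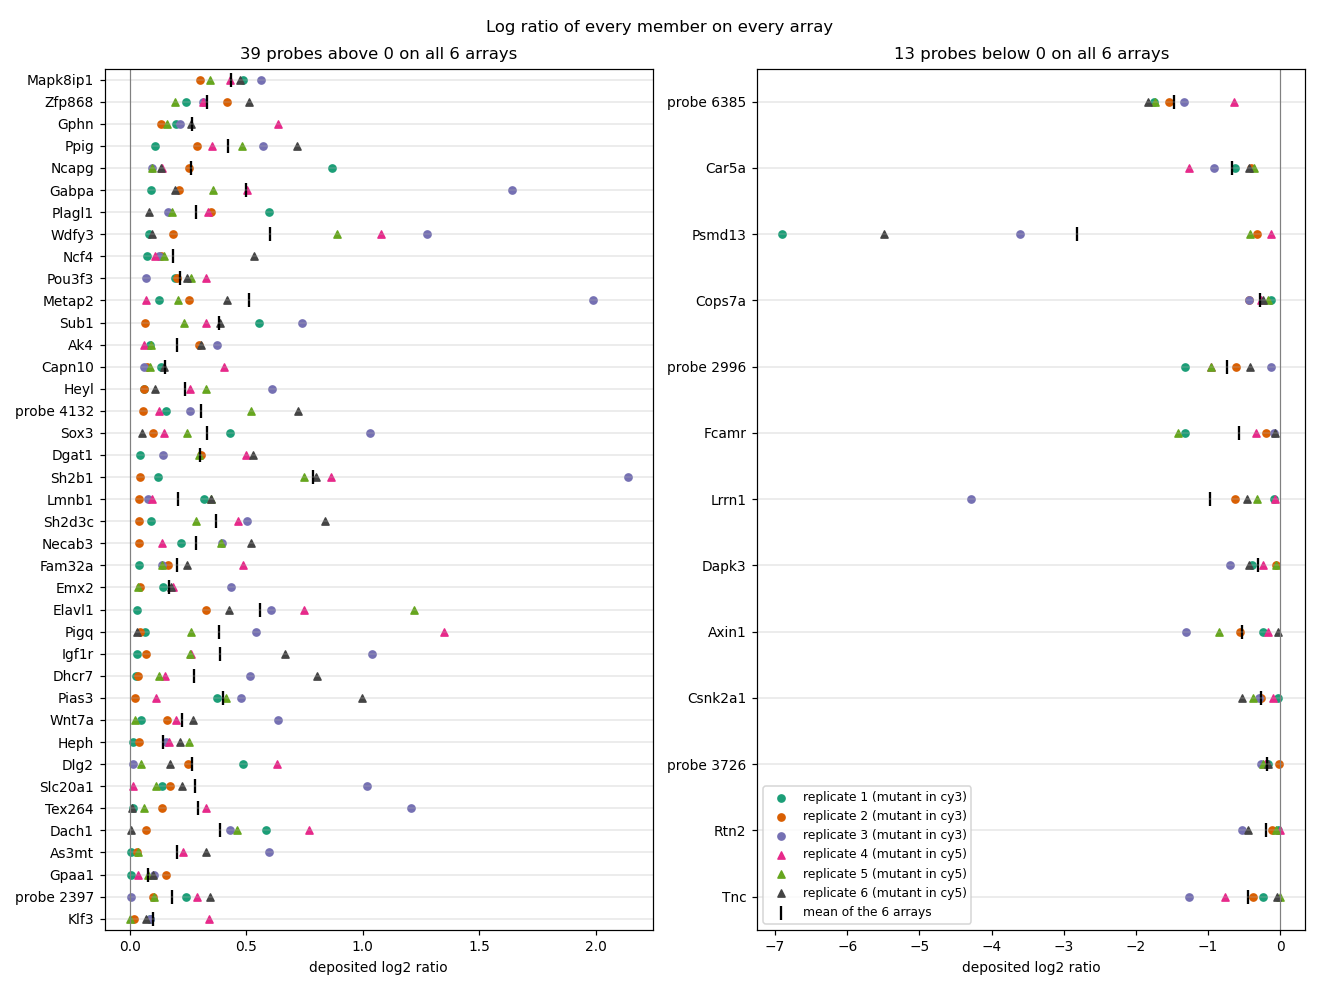
Deposited log2 ratio of each member (rows) on each array, for the 39 probes above 0 (left) and the 13 below 0 (right, wider axis), ordered by the value closest to 0. Circles are the cy3 arrays, triangles the cy5 arrays and ticks the mean of 6. Most rows start near 0, and replicate 3 gives many of the values farthest out.

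Signalling genes made up 9 members, 6 above 0 and 3 below. Mapk8ip1, the scaffold JIP1 that holds the kinases of the JNK cascade together, stayed farthest from 0 among the named members above it. Its ratio was 0.48, 0.30 and 0.56 on the cy3 arrays and 0.43, 0.35 and 0.47 on the cy5 arrays. The mean was 0.43 ± 0.10 (SD, n = 6). These values were close together, and each lay above 75.3% to 94.0% of the probes on its own array. It was the single one-sign probe among 59 complete probes of the MAP kinase and phosphatase list (1.69%), near the 1.40% of all probes counted.

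Sh2b1, an adaptor that carries signals from insulin, leptin and neurotrophin receptors, had the largest mean above 0 as deposited, 0.79 ± 0.75 (SD, n = 6). Turning replicates 1 to 3, which brings the mean of every member nearer to 0, gave 0.018 for Sh2b1 and -0.016 for Mapk8ip1. Sh2b1 read 0.12, 0.04 and 2.14 on the cy3 arrays and 0.87, 0.75 and 0.80 on the cy5 arrays. Replicates 1 and 2 were thus low and the other arrays high, and the mean was 0.52 without replicate 3 and 0.43 without replicates 3 and 4. Igf1r, the receptor of insulin-like growth factors, ran from 0.03 to 1.04 with a mean of 0.39 ± 0.39 (SD, n = 6), or 0.26 without replicate 3. A second Igf1r probe read -0.08, -0.28, -0.89, -0.14, 0.30 and 0.59 on replicates 1 to 6, so the pair disagreed in sign on replicates 1 to 4. Sh2d3c, an adaptor of integrin and receptor kinase signalling, averaged 0.37 and Necab3, a calcium-binding protein, 0.29.

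Members of the Wnt pathway stood on both sides. Wnt ligands bind receptors at the cell surface and stabilise beta-catenin, which a complex built on axin otherwise marks for destruction. Wnt7a, a ligand made by cortical progenitors, had 0.05, 0.16 and 0.64 on the cy3 arrays and 0.20, 0.02 and 0.27 on the cy5 arrays. Axin1, the scaffold of the destruction complex, had -0.24, -0.56 and -1.31 on the cy3 arrays and -0.17, -0.85 and -0.04 on the cy5 arrays. Their means were 0.22 ± 0.22 and -0.53 ± 0.48 (SD, n = 6 each), and both came within 0.05 of 0 on at least 1 array. Without replicate 3 the mean of Wnt7a was 0.14. They were the 2 one-sign probes among 33 complete probes of the Wnt, BMP and TGF-beta list (6.06%), beside 1.40% of all probes counted, and 2 probes give no basis for a difference. Csnk2a1, a catalytic subunit of casein kinase II, averaged -0.26 and ran from -0.52 to -0.03. Dapk3, a death-associated kinase, averaged -0.31.

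Transcription factors and their cofactors gave 11 members, which lay above 0 as deposited, as did 39 of all 52 members. Roles were assigned by hand after the members were known and for members alone, so no share over all probes stands beside this count. Zfp868, a zinc finger gene, came next after Mapk8ip1 in distance from 0. It read 0.24, 0.42 and 0.32 on the cy3 arrays and 0.31, 0.19 and 0.51 on the cy5 arrays, a mean of 0.33 ± 0.12 (SD, n = 6). The orientations overlapped for this gene. It was the single one-sign probe among 78 complete probes of the zinc finger list (1.28%), near the 1.40% of all probes counted.

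Factors that pattern the cortex and its progenitors were among these 11. Emx2, which sets area identity along the cortex, read 0.15, 0.04 and 0.43 on the cy3 arrays and 0.19, 0.04 and 0.18 on the cy5 arrays. Pou3f3, a POU factor of progenitors and upper-layer neurons, read 0.20, 0.20 and 0.07 on the cy3 arrays and 0.33, 0.26 and 0.25 on the cy5 arrays. Sox3, an X-linked factor of neural progenitors, read 0.43, 0.10 and 1.03 on the cy3 arrays and 0.15, 0.25 and 0.05 on the cy5 arrays. Pou3f3 lay within a narrow band on all arrays, whereas Emx2 and Sox3 reached their highest value on replicate 3. Their means were 0.17 ± 0.14 for Emx2, 0.22 ± 0.09 for Pou3f3 and 0.33 ± 0.37 for Sox3 (SD, n = 6 each), with 0.19 for Sox3 without replicate 3. Heyl, a target of Notch signalling, averaged 0.24 ± 0.21 and ran from 0.06 to 0.61 (SD, n = 6). Dach1, a factor of neural progenitors and other embryonic tissues, averaged 0.39 and was as low as 0.01 on replicate 6. Emx2 and Pou3f3 were the one-sign probes among 60 complete probes of the homeobox patterning list (3.33%), beside 1.40% of all probes counted. With 2 probes there is no basis for a difference. In the cortical progenitor list Tnc, below 0, stood beside Emx2 and Sox3.

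The other transcription members act more generally. Gabpa, the DNA-binding ETS subunit of a factor that drives genes of mitochondrial function, averaged 0.50 ± 0.58 (SD, n = 6) with 1.64 on replicate 3. Its mean was 0.27 without replicate 3 and 0.21 without replicates 3 and 4. Plagl1, an imprinted zinc finger gene of growth control, read from 0.08 to 0.60, Sub1, a transcription coactivator, from 0.07 to 0.74 and Pias3, a SUMO ligase that inhibits Stat3, from 0.02 to 1.00. Klf3, a repressor of the Krüppel-like family, was the member nearest to 0, at 4e-06 on replicate 5, with a mean of 0.10, or 0.052 without replicate 4.

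Genes of synapses, adhesion and matrix gave 4 members. Gphn encodes gephyrin, which clusters glycine and GABA receptors at inhibitory synapses and also makes the molybdenum cofactor. Its ratio was 0.20, 0.13 and 0.22 on the cy3 arrays and 0.64, 0.16 and 0.26 on the cy5 arrays. The value of replicate 4 stood apart from the other 5, and the mean was 0.27 ± 0.19 (SD, n = 6), or 0.19 without replicates 3 and 4. Dlg2, the scaffold PSD-93 of excitatory synapses, read 0.48, 0.25 and 0.02 on the cy3 arrays and 0.63, 0.05 and 0.17 on the cy5 arrays. These were 2 of 19 complete probes in the postsynaptic list (10.5%), beside 1.40% of all probes counted. The list was drawn up with earlier results on gephyrin known, and 2 members give no basis for a difference.

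The matrix and adhesion members lay below 0. Tnc, or tenascin C, a matrix protein of radial glia, read -0.25, -0.37 and -1.26 on the cy3 arrays and -0.77, -0.00073 and -0.051 on the cy5 arrays. It was thus all but at 0 on replicate 5. A second Tnc probe read -0.05, -0.14, -0.20, 0.18 and 0.58 on replicates 1, 2, 4, 5 and 6, with both signs, and the mean of the member probe was -0.45, or -0.29 without replicate 3. Lrrn1, a leucine-rich repeat membrane protein of the developing nervous system, had -4.28 on replicate 3 and between -0.62 and -0.07 elsewhere. Its mean of -0.97 ± 1.63 (SD, n = 6) became -0.31 without replicate 3 and -0.37 without replicates 3 and 4.

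Protein processing and turnover had 6 members. Psmd13, a lid subunit of the 26S proteasome, had the lowest mean of all members, -2.81 ± 2.96 (SD, n = 6). It read -6.90, -0.33 and -3.61 on the cy3 arrays and -0.13, -0.42 and -5.50 on the cy5 arrays. The arrays split into 3 with very low values and 3 with values from -0.42 to -0.13, and each orientation held both kinds. The value on replicate 1 was the lowest of that array. Those on replicates 3 and 6 lay above 0.09% and 0.018% of the probes there. On replicates 2, 4 and 5 the values lay above 10.4%, 49.7% and 11.0% of the probes. Cops7a, a subunit of the COP9 signalosome that removes Nedd8 from ubiquitin ligases, read -0.13, -0.43 and -0.43 on the cy3 arrays and -0.27, -0.17 and -0.25 on the cy5 arrays. Its mean was -0.28 ± 0.13 (SD, n = 6), with a spread far under that of Psmd13. Psmd13 and Ppig were the one-sign probes, below and above 0, among 65 complete probes of the chaperone and proteasome list (3.08%). This share stood beside 1.40% of all probes counted, and so few probes give no basis for a difference.

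The other 4 turnover members were above 0. Wdfy3, a large scaffold of selective autophagy, read 0.08, 0.18 and 1.27 on the cy3 arrays and 1.08, 0.89 and 0.10 on the cy5 arrays. Its mean of 0.60 ± 0.54 (SD, n = 6) became 0.31 without replicates 3 and 4. Metap2, an aminopeptidase that removes the first methionine of new proteins, averaged 0.51, or 0.22 without replicate 3, where it read 1.99. Tex264, a receptor for autophagy of the endoplasmic reticulum, averaged 0.29, or 0.11 without replicate 3. The protease Capn10 averaged 0.15, or 0.10 without replicate 4.

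Genes of metabolism and lipids gave 7 members. Car5a, a mitochondrial carbonic anhydrase that supplies bicarbonate, stayed farther from 0 on its weakest array than any other named member. Its ratio was -0.63, -0.41 and -0.92 on the cy3 arrays and -1.27, -0.37 and -0.43 on the cy5 arrays. The mean was -0.67 ± 0.36 (SD, n = 6), or -0.46 without replicates 3 and 4, and the orientations overlapped. The other 6 lay above 0. Dhcr7, the last enzyme of cholesterol synthesis in the Kandutsch-Russell pathway, averaged 0.28 ± 0.31 (SD, n = 6), or 0.17 without replicate 6. It was 1 of 7 complete probes of the cholesterol list (14.3%), beside 1.40% of all probes counted, and a single probe gives no basis for a difference. Gpaa1 and Pigq both act in making and attaching the GPI anchors that hold proteins at the cell surface. Gpaa1 had the smallest mean of all members, 0.08 ± 0.05 (SD, n = 6). Pigq averaged 0.38 with 1.35 on replicate 4, 0.19 without that array and 0.10 without replicates 3 and 4. A second Pigq probe read 0.08, -0.26, 0.28, 0.41 and 0.65 on replicates 1, 2, 4, 5 and 6. Dgat1, which makes triglycerides, averaged 0.30, the mitochondrial adenylate kinase Ak4 0.20 and the arsenic methyltransferase As3mt 0.20, or 0.13 without replicate 3.

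RNA-binding proteins and nuclear structure each gave 2 members above 0. Ppig, a cyclophilin associated with splicing factors, read 0.11, 0.29 and 0.57 on the cy3 arrays and 0.35, 0.48 and 0.72 on the cy5 arrays, a mean of 0.42 ± 0.22 (SD, n = 6). Elavl1, or HuR, which stabilises messenger RNAs, read 0.03, 0.33 and 0.61 on the cy3 arrays and 0.75, 1.22 and 0.42 on the cy5 arrays, a mean of 0.56 ± 0.41 (SD, n = 6). Both were lowest on replicate 1. Ncapg, a condensin subunit of mitotic chromosomes, had 0.87 on replicate 1 and between 0.10 and 0.25 elsewhere, so that its mean of 0.26 was 0.14 without replicate 1. Lmnb1, lamin B1 of the nuclear envelope, averaged 0.21.

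The remaining named members covered transport, immune cells and a gene with no role assigned here. Slc20a1, a phosphate transporter, averaged 0.28, or 0.13 without replicate 3, and the ferroxidase Heph, which is X-linked like Sox3, averaged 0.14. Rtn2, a reticulon of the endoplasmic reticulum, averaged -0.20. Ncf4, a subunit of the phagocyte NADPH oxidase, averaged 0.19, or 0.12 without replicate 6, and Fcamr, an Fc receptor for IgA and IgM, -0.57 ± 0.62 (SD, n = 6), with -1.31 and -1.42 on replicates 1 and 5 and between -0.33 and -0.07 elsewhere. Fam32a averaged 0.20.

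**Figure D3:**
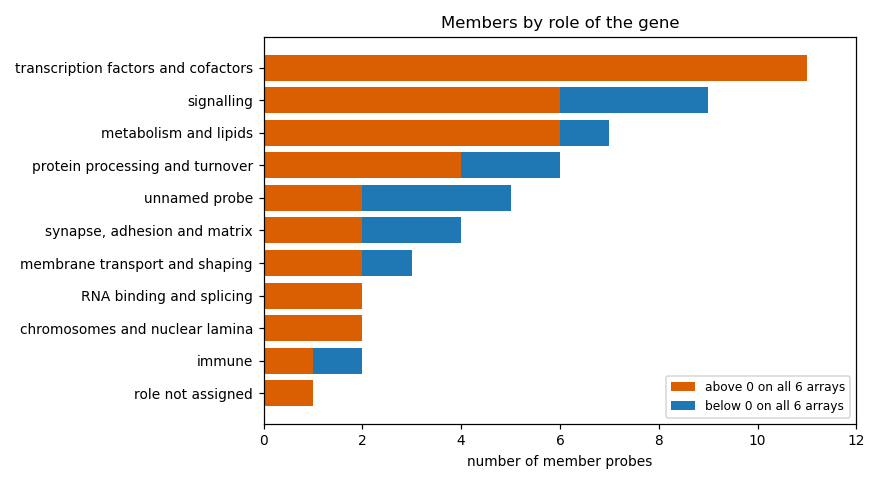
Number of member probes by role of the gene, above 0 (orange) and below 0 (blue) on all 6 arrays. Of the 52 members 39 lay above 0, and the roles, assigned after the members were known, hold between 1 and 11 probes each.

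Unnamed probe 6385 stayed farthest from 0 of all 52 members. It read -1.75, -1.54 and -1.34 on the cy3 arrays and -0.64, -1.73 and -1.83 on the cy5 arrays, a mean of -1.47 ± 0.44 (SD, n = 6). Unnamed probe 2996 averaged -0.74 and ran from -1.32 to -0.12. Of the other 3 unnamed members, 4132 averaged 0.31, 2397 averaged 0.18 and 3726 averaged -0.18. With a minimum size of 0.1 on every array, 9 members were left. They were Mapk8ip1, Zfp868, Gphn and Ppig above 0, and Car5a, Psmd13, Cops7a and probes 6385 and 2996 below it, where independent arrays would give 11.0 above and 8.58 below.

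The border of the rule ran through values of almost 0. Just inside lay Klf3, probe 2397 and Gpaa1 above 0, with their smallest values at 4e-06, 0.0039 and 0.0052, and Tnc, Rtn2 and probe 3726 below 0, at -0.00073, -0.0093 and -0.022. Just outside lay Mfng, Srebf1 and Gng13, above 0 on 5 arrays and at -0.0022, -0.0035 and -0.0059 on the sixth. On the other side these were Ltv1, Pcm1 and Leprot, at 0.0050, 0.0062 and 0.0068 on 1 array. In all 234 probes were above 0 on exactly 5 of the arrays and 182 below 0.

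The orientations gave means that differed by over 1.5 times for 28 of 39 members above 0 and 6 of 13 below. The mean of the cy3 arrays was farther from 0 than that of the cy5 arrays for 15 of 39 members above 0 and 8 of 13 below. Lrrn1 averaged -1.66 on the cy3 arrays and -0.29 on the cy5 arrays, and Psmd13 -3.61 and -2.01. Elavl1 averaged 0.32 on the cy3 arrays and 0.80 on the cy5 arrays. Mapk8ip1 averaged 0.45 on the cy3 arrays and 0.42 on the cy5 arrays, Car5a -0.65 and -0.69 and Sh2b1, with 2.14 on replicate 3, 0.77 and 0.80.

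**Figure D4:**
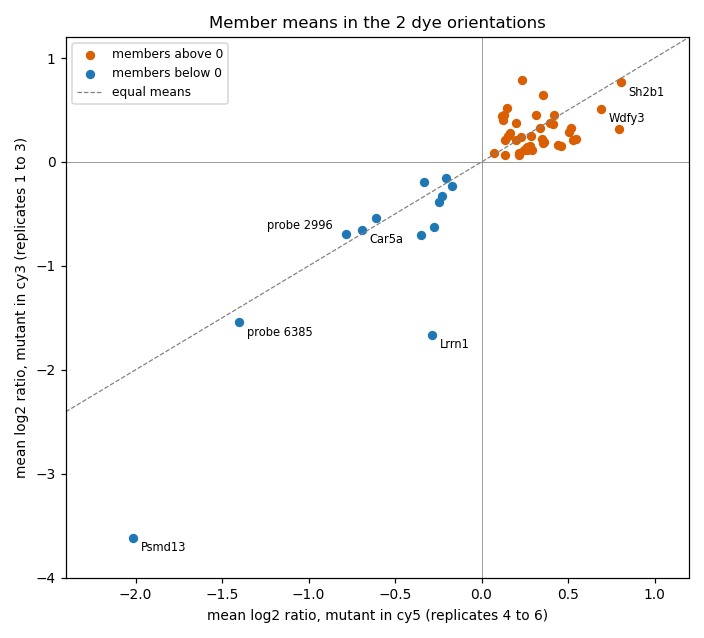
Mean deposited log2 ratio of each member over the 3 cy3 arrays (vertical axis) and the 3 cy5 arrays (horizontal axis), orange above 0 and blue below 0, with a dashed line of equal means. Car5a, Sh2b1 and probe 6385 sit near the line, while Lrrn1 and Psmd13 lie under it.

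Gene groups followed in a study of silent synapses held some of the members. Of 37 lists, 14 held a member and 23 held none, and 17 of the 52 members were in any list. The share of all probes counted that stood in any list was not worked out, so the 17 have no background beside them. Synaptic vesicle and release genes had 0 of 23 complete probes of 1 sign, ion channels 0 of 33, cell cycle and DNA replication genes 0 of 70, neuropeptides and dense core vesicles 0 of 10, and activity-regulated genes 0 of 27. Calcium, cAMP and G protein signalling had 0 of 48, with Gng3 left out, and axon guidance and cadherins 0 of 48. At 1.40% of all probes counted, each of these lists would hold about 1 such probe or fewer, so a count of 0 is near the background.

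Lists of cell types gave 4 entries of 1 sign. Cortical progenitor genes had Emx2 and Sox3 above 0 and Tnc below, of 29 complete probes (10.3%, beside 1.40% of all probes counted, with 3 probes no basis for a difference). Postmitotic projection neuron genes had Pou3f3, of 29 (3.45%), where a single probe gives no basis for a difference. The lists for interneurons and ganglionic eminence (12 complete probes), glia (8), meninges and vessels (6), choroid plexus and hem (5), erythroid cells (4) and microglia (2) had 0. The part that a shift in cell types could play in the members was not tested, and in RNA of a whole tissue fewer cells of a type and less RNA per cell cannot be told apart. The median mean ratio was -0.02 over the progenitor list and -0.14 over the projection neuron list, beside -0.06 over all 3719 probes.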

How the data were processed

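The deposited value table, made by the authors, holds for each probe and array a log ratio of 2 channels, read here as log2. How the authors scanned, background-corrected and normalized the arrays is not given in the sources used here, and the depth of a spot (signal over background) is unknown. The number of arrays limits the precision. Array means lay within 0.01 of 0, and array medians ran from -0.23 on replicate 3 to 0.05 on replicate 1. Names came from the platform annotation: 6269 probes had 1 symbol, 6 several and 581 none, and 6250 matched RefSeq GRCm38.p6 by gene identifier. The targeted gene is not reported here.

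Probes of 1 sign were counted in Python 3.11.15 with pandas 2.3.3. The expected number is the number of probes times the product over arrays of each array's share of values on that side. The counting rule was tested on simulated independent arrays. For the whole table, limma 3.58.1 in R 4.3.3 fitted the ratio against 0 with the dye orientation as a term, on probes with at least 2 values in each orientation (two-sided, Benjamini-Hochberg, threshold 0.05), after a test on simulated data. The pool is 1 control sample, so the spread between wild-type animals is left out.

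The members and gene lists were chosen with earlier results of these data known, and roles after the members were seen. Named genes are the 10 members per side whose value closest to 0 is farthest out, 5 more by mean size, list members, the unnamed probes and the neighbours of the border. The remaining members, and Gapdh, were added after their values were seen. Alternatives were turning replicates 1 to 3, turning 3 and 4, leaving out each replicate or both of these, median centring, scaling, a minimum size of 0.1, values on at least 5 arrays and 1 value per gene, and, for limma, no dye term and complete probes.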

Additional observations from a re-analysis of the deposited data

Results flagged for a closer look

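In 11 of the 52 members 1 array stood apart from the other 5, with a gap to the nearest of them past Dixon's critical value for 6 samples. Chance flags about 1 group in 20 where the 6 values have equal spread. Here the arrays differed in spread, and the choice by sign cuts the values of each member off at 0. Among probes the rule was run on members alone, so no share over all probes stands beside this count. The array that stood apart was replicate 3 in 6 of the 11, with Gabpa at 1.64, Metap2 at 1.99, Emx2 at 0.43, Slc20a1 at 1.02, Tex264 at 1.21 and Lrrn1 at -4.28. It was replicate 4 for Gphn at 0.64, Capn10 at 0.41 and Klf3 at 0.34, replicate 1 for Ncapg at 0.87 and replicate 6 for Ncf4 at 0.53. Replicate 3 also stood apart in the standard deviation of its values, 1.09, with a gap of 0.626 of the range over the 6 arrays.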

How the results depend on the processing

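Counts of probes of 1 sign moved with the signs and arrays used, and are given as both sides together, above 0 and below 0. As deposited they were 52, 39 and 13. With replicates 1 to 3 turned they were 146, 62 and 84, with replicates 3 and 4 turned 464, 331 and 133 (expected 169.0, 153.1 and 15.9), and without replicates 3 and 4 808, 552 and 256 (expected 624.3, 450.0 and 174.3). A minimum size of 0.1 left 9, 4 and 5, and probes with values on at least 5 arrays gave 83, 62 and 21. Leaving out each replicate in turn gave 103 to 148, 70 to 103 and 33 to 74, or 47.9% to 73.2% of the expected total. Fewer arrays make 1 sign easier to reach. Median centring gave 56, 41 and 15, of which 26 above and 8 below were members as deposited, and 1 value per gene gave 45, 35 and 10. Limma called 0 probes under the alternatives run except without replicates 3 and 4, where it called 1.

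The choice of members fixes the sign of each mean when arrays are left out or scaled, so the sign is no measure of stability there. Median centring raised every mean by the same small amount and turned 0 of 52, which is no measure of stability either. Single values moved by their array's median, which was -0.23 on replicate 3 and -0.13 on replicate 4. Probe 2996, at -0.12 on replicate 3, lay above that array's median and so lost its shared sign. Probe 3726, whose mean was the closest to 0 on the side below, went from -0.18 to -0.14. Without 1 replicate the mean of 17 members moved by over 1.5 times, in 11 of them without replicate 3. Because each member has 1 sign, turning replicates 1 to 3 brings every mean nearer to 0. It reverses those whose cy3 mean is farther from 0 than the cy5 mean, so these moves are no measure of stability. This turning reversed 23 means and brought 11 others to between -0.070 and 0.098, a move of at least their standard deviation. Among the 11 were Zfp868 (0.0076), Sh2b1 (0.018), Dach1 (0.024) and Car5a (-0.019). The 23 became -0.016 for Mapk8ip1, -0.14 for Ncapg, -0.15 for Gabpa, -0.085 for Plagl1, -0.28 for Metap2, -0.070 for Sub1, -0.050 for Ak4, -0.0066 for Heyl, -0.19 for Sox3, -0.037 for Emx2, -0.059 for Wnt7a, -0.16 for Slc20a1, -0.16 for Tex264, -0.0072 for As3mt, -0.0080 for Gpaa1, 0.071 for probe 6385, 0.80 for Psmd13, 0.051 for Cops7a, 0.69 for Lrrn1, 0.068 for Dapk3, 0.18 for Axin1, 0.028 for Rtn2 and 0.18 for Tnc. The cause was not tested. No paired analysis was possible because each replicate number belongs to 1 mutant set against the same pool. Removing dim probes was not run, since ratios hold no signal over background.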
